A study of Arabidopsis thaliana with 18 samples.

Results

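Seeds labelled ros1-4 were compared with seeds of the wild type Col-0 at germination stage II, when the seed coat has split and the tip of the radicle shows. The members were chosen by label alone: 6 of the 18 libraries of the series, 3 labelled ros1-4 and 3 labelled Col-0. ros1-4 is a single homozygous T-DNA line (SALK_135293) in the Col-0 background, and Col-0 carries no insertion, so ros1-4 stands here as 1 allele in 1 line. Plants of both genotypes set seed at 23 °C, the seeds were dried for 3 days and imbibed in water in the light at 20 °C, and RNA came from whole seeds, 100 seeds in each of the 3 biological replicates. The hour of harvest is not given in the sources used here. The counts per transcript were summed to 27587 genes, and the 18521 genes that passed a filter on low counts were tested. A level is given in CPM, the count scaled to a common library total after TMM scaling (a correction for library composition). A gene was called different at a Benjamini-Hochberg adjusted p under 0.05 in edgeR's quasi-likelihood test, and every adjusted p below comes from that test unless another is named. Fold changes are ros1-4 over Col-0 on the log2 scale, with their standard error (SE).

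ROS1 is a DNA glycosylase that cuts 5-methylcytosine out of DNA and so keeps genes and their borders free of methylation. Germination itself is a change of programme. The imbibed embryo stops using the transcripts of seed maturation, which encode storage proteins, oil body proteins and protectants against drying, and turns to breaking down its oil through beta-oxidation and the glyoxylate cycle. The radicle elongates by loosening its walls, and the first root hairs follow. The circadian clock also starts to run in the imbibed seed: the morning factors CCA1 and LHY repress evening genes such as TOC1, and the evening proteins in turn repress the morning ones.

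ROS1 (AT2G36490) had 60.8, 59.2 and 57.6 CPM in the libraries labelled ros1-4, against 13.4, 15 and 14.9 CPM in the Col-0 libraries. All 3 libraries labelled ros1-4 lay above all Col-0 libraries, by 2.04 (SE 0.07, adjusted p = 5.5e-06). This goes against the label if the insertion lowers the transcript, but a count summed over a gene gives no position of its reads within it, and so checks neither the insertion nor the protein. In mature seeds ROS1 was lower in the libraries labelled ros1-4 (-0.55, adjusted p = 2.2e-05). Every direction below rests on the labels. EPF2, a secreted peptide that limits the stomatal lineage and whose promoter ROS1 is known to keep free of methylation in leaves, had 0, 0 and 1 reads in the libraries labelled ros1-4, against 67, 64 and 63 reads in the Col-0 libraries. The ratio was 0.00455, with a counting interval from 0.000115 to 0.0257 (exact binomial, 95%, counting error only).

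The ros1-4 libraries held 20718718 to 20787339 counts, against 18762976 to 19392739 in Col-0. Col-0 replicate 3 stood apart. Across genes, its log2 levels correlated at 0.980 with those of the other Col-0 libraries, which correlated at 0.991 with each other, while the ros1-4 libraries correlated at 0.994 to 0.995 among themselves (genes are not independent replicates, so no test goes with these values). Col-0 replicate 3 was also nearer to ros1-4, at 0.966 to 0.967, than Col-0 replicates 1 and 2 were, at 0.948 to 0.955. On an axis from mature Col-0 seeds at 0 to stage IV Col-0 seeds at 1, drawn over 12876 genes without any stage II library, the ros1-4 libraries lay at 0.885, 0.882 and 0.875, against 0.847, 0.830 and 0.901 for Col-0 replicates 1, 2 and 3. The difference of 0.021 was smaller than the spread of the Col-0 libraries (SD 0.037, n = 3) and did not pass the exact two-sided permutation test (p = 0.4, smallest possible 0.1). Whether the seeds of Col-0 replicate 3 had advanced further was not tested beyond this axis.

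**Figure D1:**
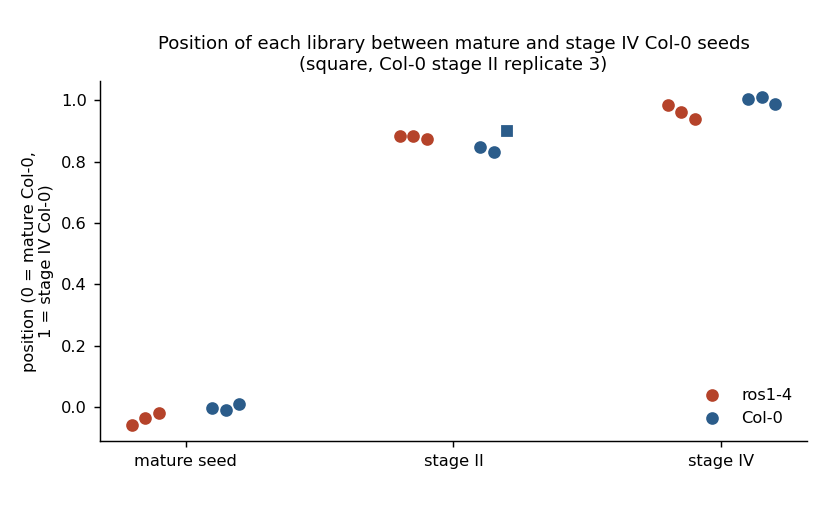
Position of each of the 18 libraries (y axis, no unit) on the line from the mean of mature Col-0 seeds (0) to the mean of stage IV Col-0 seeds (1), by stage (x axis); points are libraries, ros1-4 left of Col-0. At stage II the ros1-4 libraries sit together at 0.875 to 0.885, with Col-0 replicate 3 above them at 0.901 and Col-0 replicates 1 and 2 below them.

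With all 6 libraries, 2117 genes were higher in ros1-4 and 2065 were lower, which is 11.4% and 11.1% of the genes tested (22.6% in either direction), and 1116 genes (6.03%) differed at least 2-fold, 763 higher (4.12%) and 353 lower (1.91%). Scaling by library size alone moved the split to 2823 higher and 1408 lower, with the median gene at 0.06 in place of 0.00. Without Col-0 replicate 3 the calls numbered 6934 (37%), 3668 higher (19.6%) and 3266 lower (17.4%) of 18735 genes, although a library fewer was used, and 1669 (8.91%) of them were at least 2-fold. The levels of the groups did not overlap, with ros1-4 above, for 21.4% of the genes tested, and with ros1-4 below for 20.6%. Of the 4182 calls, 4125 remained without it, all in the same direction, 57 were lost and 2809 were gained. Among 1572 genes that differed at least 2-fold without Col-0 replicate 3, that library lay between the other Col-0 libraries and the ros1-4 mean for 1135 genes (72.2%), past the ros1-4 mean for 165 and further from ros1-4 for 272. It covered a median of 37.6% of the gap (quartiles 9.76% and 71.4%). These genes were chosen by their gap from Col-0 replicates 1 and 2, a choice that by itself places a held-out Col-0 library nearer to ros1-4. The same shares were not computed with another Col-0 library held out, so they cannot show that replicate 3 is special. The number of calls grew without Col-0 replicate 3. Counts for the gene lists at stage II are therefore given with and without it, to be read against that growth over all genes. Of all calls 44.6% (1020 higher and 845 lower) held in each of the 6 fits that left out 1 library. Genes that overlap a neighbour on the genome may share reads with it, since counting by strand is not stated. Of the genes named below these are FKF1, BOA, ATCG01110, ATCG01130, PCL1, ELF3, EXPA7, OLEO1, OLEO2, F3H, TT4, XTH15, BGAL8, ABF3, ABF1, MBF1C, TIP3;1, DELTA-TIP, CAB1, LHCB4.2, GASA6, CYCD3;1, MAN7 and EXPA2.

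Markers of cell types bear on what follows, since in whole seeds fewer cells of a type and less RNA per cell cannot be told apart. The summed level of 10 root hair cell markers was 194 to 265 CPM in ros1-4, against 18.4 to 28.2 CPM in Col-0, with 9 of 10 higher. The 5 dry seed markers summed to 1464 to 2173 CPM in ros1-4, against 214 to 327 CPM in Col-0, with 3 of 5 higher. Those 3 were the storage genes CRA1, CRU3 and SESA1. EM1 (-0.88) and EM6 (0.28) were not called, and EM1 was called lower without Col-0 replicate 3 (-1.31). The endosperm markers summed to 3694 to 3910 CPM in ros1-4, against 2039 to 3190 CPM in Col-0, with 1 of 4 tested higher and 2 lower, and most of that sum was the 1 gene EPR1 (AT2G27380) described below. Greening markers overlapped between the groups (3438 to 3644 CPM in ros1-4, against 3375 to 3903 CPM in Col-0), and root cap markers had no calls among 4, although their sum was higher in every ros1-4 library (at least 15.8 CPM) than in every Col-0 library (at most 15.1 CPM). Stomatal lineage markers summed to 72.5 to 80.3 CPM in ros1-4, against 33.3 to 41.9 CPM in Col-0, with 3 of 6 higher and 1 lower, and of 5 xylem markers 3 were higher and 1 lower. Of the pigment layer of the seed coat, all 5 markers, among them BAN and TT12, had at most 3 counts in every library. Which tissues of the whole seed gave the RNA was not tested. The part of these cell types in the gene differences was not tested.

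Clock genes differed between the libraries labelled ros1-4 and those labelled Col-0. The hour of harvest is not given for either group. Genotype and hour of harvest therefore cannot be told apart in these genes, and the part of each was not tested. All 12 morning clock genes were lower in the libraries labelled ros1-4, with a median of -2.85 (median of all genes tested -0.001), and all 12 kept the call without each library in turn. Of 12 evening clock genes tested, 7 were higher and 1 was lower, with a median of 1.13. Without Col-0 replicate 3 the evening genes were 8 higher and 2 lower. Scaled by library size alone the evening genes were 8 higher and 0 lower.

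LHY, a MYB factor of the morning, had 4.82, 3.72 and 2.74 CPM in ros1-4, against 323, 307 and 275 CPM in Col-0. Its partner CCA1 had 2.17, 1.79 and 2.03 CPM in ros1-4, against 114, 87.9 and 63.3 CPM in Col-0. For both genes every ros1-4 library was far below every Col-0 library, and the fold changes were -6.32 (SE 0.17, adjusted p = 4.9e-06) for LHY and -5.46 (SE 0.26, adjusted p = 3.1e-05) for CCA1. PRR9, the first of the pseudo-response regulators of the day, had 54, 64 and 68 reads in ros1-4, against 917, 724 and 380 reads in Col-0. RVE8, a MYB activator of evening genes, had 2.51, 2.22 and 2.22 CPM in ros1-4, against 26.7, 26.0 and 18.7 CPM in Col-0. The lowest of the Col-0 values was that of replicate 3 in each of these 4 genes, and it was still several times the ros1-4 level. The smallest difference of the list was that of LCL1, a close relative of RVE8, at -0.61 (SE 0.065, adjusted p = 7.4e-04), with 27.5 to 31.0 CPM in ros1-4, against 44.1 to 46.2 CPM in Col-0.

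Among the evening genes, PRR5, a repressor of CCA1 and LHY, had 27.3, 28.6 and 29.8 CPM in ros1-4, against 3.46, 2.20 and 0.742 CPM in Col-0. It was 3.74 higher (SE 0.32, adjusted p = 3.1e-04), and here Col-0 replicate 3 was the library furthest from ros1-4. ELF4 and PCL1 encode 2 of the parts of the evening complex, which silences morning genes at night. ELF4 had 41.1, 44.1 and 42.4 CPM in ros1-4, against 10.8, 9.11 and 3.39 CPM in Col-0, and PCL1 rose by 1.48 (SE 0.19, adjusted p = 0.00145). The remaining part of that complex, ELF3, was the member that fell, by 0.27 (SE 0.06, adjusted p = 0.02), and this call was lost in 5 of 6 fits that left out a library. TOC1 had 87.6, 93.0 and 91.4 CPM in ros1-4, against 48.7, 41.2 and 32.1 CPM in Col-0, a rise of 1.16 (SE 0.13, adjusted p = 9.9e-04). GI, which carries light and clock signals towards flowering, rose by 0.47 (SE 0.09, adjusted p = 0.00915).

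The evening element, a motif known from promoters of evening genes, was looked for in the 300 bases before the annotated start of each gene (RefSeq genome and annotation, TAIR10.1), spelled AAAATATCT or, on the other strand, AGATATTTT. It stood in 5 of 12 windows of evening clock genes (41.7%), in 1 of 12 of morning clock genes (8.33%) and in 536 of 18431 windows of all genes tested (2.91%). The windows of PRR5, PCL1 and TOC1 are shown 5′ to 3′ on the strand of each gene as examples of windows that hold the motif, with each match in capitals. The other windows with a match were those of FKF1, which rose by 2.62 (SE 0.14, adjusted p = 5.1e-05), and BOA, which did not pass (-0.24, SE 0.26, adjusted p = 0.554), and that of ELF4, which rose, held none. Without Col-0 replicate 3, BOA was called lower, at -0.52. PRR5 has a pair of matches, starting 292 and 187 bases before the gene, that of PCL1 starts 53 bases and that of TOC1 151 bases before it. A match is a string of letters and not a shown binding site.
PRR5, chr5:8358547-8358846, minus strand: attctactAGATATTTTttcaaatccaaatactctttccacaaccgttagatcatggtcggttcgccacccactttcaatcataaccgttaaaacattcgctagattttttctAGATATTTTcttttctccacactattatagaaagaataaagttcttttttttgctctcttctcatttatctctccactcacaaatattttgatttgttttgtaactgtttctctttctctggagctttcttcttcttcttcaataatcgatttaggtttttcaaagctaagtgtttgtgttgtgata
PCL1, chr3:17182742-17183041, plus strand: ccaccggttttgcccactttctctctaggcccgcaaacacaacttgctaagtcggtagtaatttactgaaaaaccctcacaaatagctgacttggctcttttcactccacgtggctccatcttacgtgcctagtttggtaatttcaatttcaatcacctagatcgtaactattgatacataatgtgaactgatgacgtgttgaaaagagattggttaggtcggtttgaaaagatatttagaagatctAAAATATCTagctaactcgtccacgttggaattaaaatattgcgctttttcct
TOC1, chr5:24674663-24674962, plus strand: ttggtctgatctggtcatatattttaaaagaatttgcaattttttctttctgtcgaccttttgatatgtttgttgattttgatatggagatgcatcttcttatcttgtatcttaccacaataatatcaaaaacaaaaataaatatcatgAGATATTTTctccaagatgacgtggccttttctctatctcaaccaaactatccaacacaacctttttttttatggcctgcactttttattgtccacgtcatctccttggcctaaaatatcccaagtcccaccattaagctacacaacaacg

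**Figure D2:**
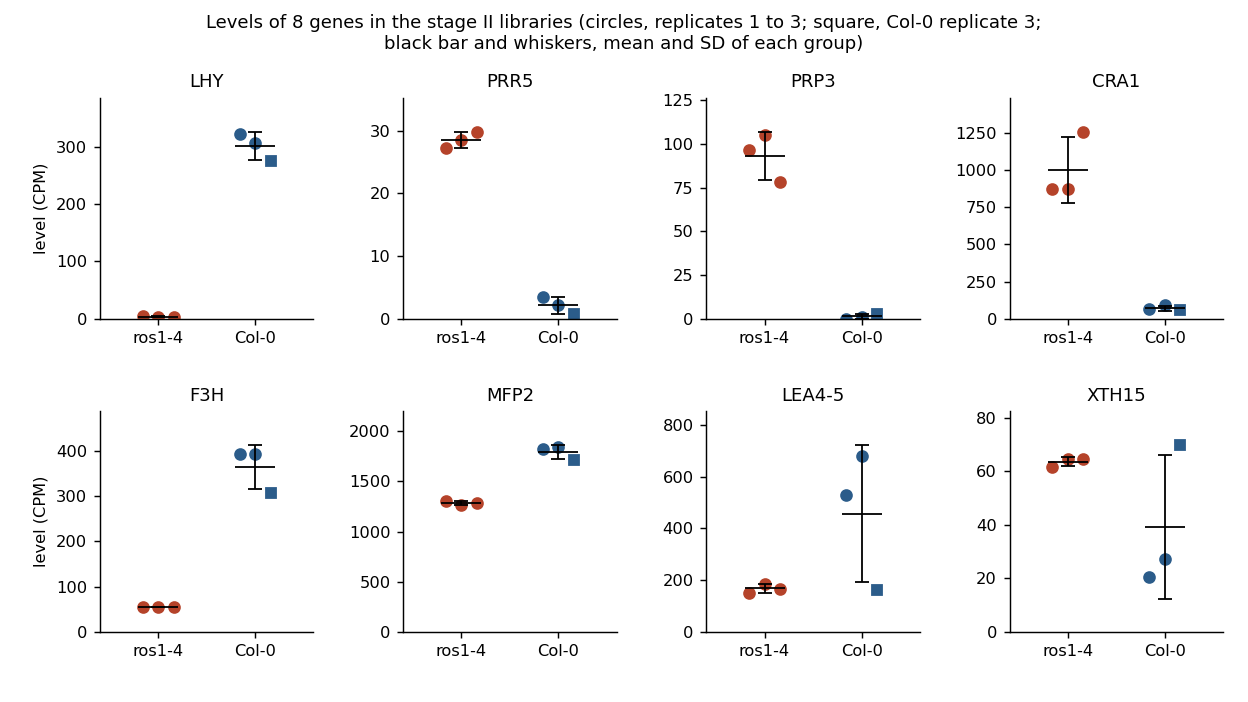
Levels (y axis, CPM, starting at 0) of 8 genes in the stage II libraries, ros1-4 left and Col-0 right in each panel; points are libraries, the square is Col-0 replicate 3, and the black bar and whiskers are mean and SD of 3 libraries. LHY, PRR5, PRP3, CRA1, F3H and MFP2 separate the genotypes with or without the square, while for LEA4-5 and XTH15 the square sits with the ros1-4 libraries, at 163 and 69.8 CPM.

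Root hair genes rose together in the libraries labelled ros1-4. Of 45 tested members 38 were higher and 1 was lower, with a median of 3.31 when genes at the floor of 3 counts are set to their bound. Without Col-0 replicate 3 the count was 39 higher and 1 lower, and 33 were higher in every fit that left out a library. Col-0 replicate 3 lay above the other Col-0 libraries by a median of 1.04 over the list, on the side of ros1-4, so the fold changes below are smaller than those without it.

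PRP3, a proline-rich wall protein of root hair cells, had 96.6, 105 and 78.1 CPM in ros1-4, against 0.105, 0.878 and 2.97 CPM in Col-0. It rose by 6.14 (SE 0.47, adjusted p = 1.9e-04), and by 7.58 (SE 0.28) without Col-0 replicate 3. EXT6, an extensin (a structural wall glycoprotein), had 121, 126 and 83.3 CPM in ros1-4, against 0.472, 1.04 and 6.68 CPM in Col-0. In both genes the Col-0 level came mainly from replicate 3, and the groups were far apart all the same. LRX1, a leucine-rich repeat extensin that shapes the hair, had 39.2, 47.8 and 30.9 CPM in ros1-4, against 0.735, 1.48 and 2.97 CPM in Col-0. EXPA7, a wall-loosening expansin of root hairs, had 14.6, 18.8 and 11.2 CPM in ros1-4, against 0.0525, 0.0549 and 0.530 CPM in Col-0. In G3Pp2, a phosphate-starvation transporter counted among the root hair genes, all Col-0 libraries were at 0, and ros1-4 was at least 7.85-fold higher (floor of 3 counts per library).

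Regulators of hair growth were among the members too. RSL4, the bHLH factor that sets hair length, had 6.15, 5.33 and 4.67 CPM in ros1-4, against 0.945, 0.714 and 0.954 CPM in Col-0, a rise of 2.62 (SE 0.20, adjusted p = 1.9e-04). RHD6, the bHLH factor upstream of it that starts a hair cell, had 20.0, 16.4 and 21.3 CPM in ros1-4, against 16.5, 14.5 and 17.2 CPM in Col-0. Its ranges overlapped, and its difference of 0.26 (SE 0.12, adjusted p = 0.145) did not pass. COW1, a phosphatidylinositol transfer protein of hair tip growth, rose by 3.08 (SE 0.28, adjusted p = 3.7e-04), with 8.48 ± 1.72 CPM in ros1-4 and 0.996 ± 0.428 CPM in Col-0 (SD, n = 3 each). SCN1, which keeps hair growth to 1 site per cell, was the member that fell, by 0.22 (SE 0.06, adjusted p = 0.0291), a call lost in 5 of 6 fits without a library. LRX2, the nearest relative of LRX1, had 44.2, 44.7 and 44.8 CPM in ros1-4, against 8.29, 12.8 and 29.9 CPM in Col-0, and its rise of 1.39 (SE 0.38, adjusted p = 0.0324) became 2.08 (SE 0.12) without Col-0 replicate 3. Extensins and xyloglucan enzymes are near-identical in places, so reads may have been shared among them.

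Genes of nutrient uptake and transport gave 7 higher and 2 lower of 21 tested, and 10 and 4 without Col-0 replicate 3. PHT1;1, a phosphate transporter, had 16.3, 14.0 and 11.7 CPM in ros1-4, against 0.0525, 0.165 and 1.43 CPM in Col-0. NRT2:1, a nitrate transporter, had a total of 2 reads in Col-0, and the ratio of ros1-4 to Col-0 was 60.5 (counting interval 16.4 to 504). The ammonium transporters went opposite ways. AMT1;3 rose by 3.28 (SE 0.28, adjusted p = 3.0e-04), while AMT1;2 had 0.425, 0.330 and 0.425 CPM in ros1-4, against 4.25, 3.62 and 1.70 CPM in Col-0.

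Seed storage transcripts were more abundant in the libraries labelled ros1-4: 12 of 14 storage and oil body genes were higher and 0 were lower, with a median of 2.26. The 2 that did not pass were OLEO2, which had 18.1, 25.5 and 25.9 CPM in ros1-4, against 12.7, 16.9 and 4.98 CPM in Col-0, and OLEO3, with overlapping ranges. Without Col-0 replicate 3 the count was 13 higher and 1 lower, and OLEO3 was the gene called lower, at -0.40 (SE 0.11, adjusted p = 0.0135). Col-0 replicate 3 differed little from the other Col-0 libraries over the list (median -0.14).

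CRA1, a cruciferin (the globulin that fills the protein bodies), had 872, 873 and 1257 CPM in ros1-4, against 64.4, 89.7 and 60.1 CPM in Col-0. It rose by 3.81 (SE 0.20, adjusted p = 5.0e-05). PAP85, a vicilin-like globulin, had 120, 97 and 178 CPM in ros1-4, against 6.3, 8.01 and 7.42 CPM in Col-0. In most storage genes the highest ros1-4 library was replicate 3, and in SESA5, an albumin, it carried much of the difference, with 10.2, 18.9 and 53.4 CPM in ros1-4, against 1.21, 2.20 and 2.44 CPM in Col-0. CRU3, another cruciferin, rose by 2.95 (SE 0.21, adjusted p = 1.4e-04). OLEO1, the main coat protein of oil bodies, had 46.0, 61.6 and 87.1 CPM in ros1-4, against 10.8, 13.6 and 8.58 CPM in Col-0. SESA1, an abundant albumin, rose least, by 0.85 (SE 0.12, adjusted p = 0.00277), and its reads may be shared with the neighbouring albumin copies.

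The RY element, a motif known from seed maturation promoters, was looked for in the same windows, spelled CATGCA or, on the other strand, TGCATG. These spellings overlap where CATGCATG occurs, as in PAP85. It stood in 13 of 14 windows of storage genes (92.9%), in 6 of 45 of root hair genes (13.3%) and in 1751 of 18431 of all genes tested (9.5%). The windows of the 3 globulin genes named above are shown, as examples, with matches in capitals and 5′ to 3′ on the strand of the gene. The storage window without a match was that of the cruciferin CRU2, which rose by 2.4 (SE 0.22, adjusted p = 4.0e-04).
CRA1, chr5:17758337-17758636, minus strand: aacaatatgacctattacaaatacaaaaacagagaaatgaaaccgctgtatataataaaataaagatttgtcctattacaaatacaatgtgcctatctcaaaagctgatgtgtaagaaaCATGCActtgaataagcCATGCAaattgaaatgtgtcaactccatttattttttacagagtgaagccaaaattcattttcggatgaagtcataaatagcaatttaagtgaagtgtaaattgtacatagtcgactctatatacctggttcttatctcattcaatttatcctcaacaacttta
CRU3, chr4:14087256-14087555, plus strand: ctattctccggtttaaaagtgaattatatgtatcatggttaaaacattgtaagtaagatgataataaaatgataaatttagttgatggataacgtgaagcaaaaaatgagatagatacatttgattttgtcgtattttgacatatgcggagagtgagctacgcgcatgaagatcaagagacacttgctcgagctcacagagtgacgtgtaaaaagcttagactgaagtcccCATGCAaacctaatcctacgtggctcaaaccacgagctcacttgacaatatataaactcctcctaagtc
PAP85, chr3:8013942-8014241, minus strand: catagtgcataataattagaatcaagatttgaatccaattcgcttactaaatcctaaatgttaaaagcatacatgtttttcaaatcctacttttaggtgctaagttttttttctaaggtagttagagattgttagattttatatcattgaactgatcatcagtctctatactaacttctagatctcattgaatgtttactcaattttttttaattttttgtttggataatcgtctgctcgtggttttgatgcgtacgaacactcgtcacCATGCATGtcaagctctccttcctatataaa

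Oil breakdown ran the other way, by a small margin in most genes. Of 23 tested genes of reserve oil breakdown and the glyoxylate cycle, 18 were lower in ros1-4 and 1 was higher, with a median of -0.29, and without Col-0 replicate 3 the count was 19 lower and 1 higher. Scaled by library size alone, 14 were lower. Of the 18 lower calls, 12 held in all 6 fits that left out a library. The largest fall was in ACX1, an acyl-CoA oxidase that opens beta-oxidation, with 149, 159 and 159 CPM in ros1-4, against 399, 422 and 439 CPM in Col-0 (-1.43, SE 0.06, adjusted p = 1.5e-05). MFP2, the multifunctional enzyme of the next steps, had 1309, 1269 and 1289 CPM in ros1-4, against 1826, 1844 and 1717 CPM in Col-0. In both genes all ros1-4 libraries lay below all Col-0 libraries. MLS, malate synthase, fell by 0.39 (SE 0.04, adjusted p = 8.4e-04). ICL, isocitrate lyase and the most abundant gene of the list, had 27242, 26757 and 27312 CPM in ros1-4, against 29321, 32864 and 30510 CPM in Col-0, and its fall of 0.19 (SE 0.04, adjusted p = 0.0178) held in 3 of 6 fits that left out a library. SDP1, the lipase that starts oil breakdown, did not pass, at -0.07 (SE 0.06, adjusted p = 0.478). The gene that rose was PCK2, with 0.848 to 2.51 CPM in ros1-4, against 0 to 0.157 CPM in Col-0, while its abundant relative PCK1, which feeds sugar formation, fell by 0.31 (SE 0.04, adjusted p = 0.00109).

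In the phenylpropanoid and flavonoid list, 10 of 18 tested genes were lower and 3 were higher in ros1-4, with a median of -1.31. Without Col-0 replicate 3 the count was 11 lower and 5 higher. All 10 lower calls held without each library in turn. TT4, chalcone synthase at the entry of the flavonoid branch, had 25.5, 27.9 and 27.7 CPM in ros1-4, against 105, 129 and 139 CPM in Col-0. F3H, flavanone hydroxylase, had 55.4, 54.5 and 55.0 CPM in ros1-4, against 392, 392 and 307 CPM in Col-0 (-2.72, SE 0.10, adjusted p = 1.1e-05). FLS1, flavonol synthase, fell by 1.85 (SE 0.08, adjusted p = 2.8e-05). UGT78D1, which attaches rhamnose to flavonols, had 8.75, 6.08 and 8.44 CPM in ros1-4, against 70.1, 75.5 and 99.9 CPM in Col-0. These 4 genes kept the groups far apart, with Col-0 replicate 3 sometimes the highest and sometimes the lowest Col-0 library. TT7, flavonoid hydroxylase, had 5.48, 4.81 and 4.48 CPM in ros1-4, against 54.9, 57.9 and 13.8 CPM in Col-0, so replicate 3 lay well below the other Col-0 libraries. Of the general phenylpropanoid steps, C4H, cinnamate hydroxylase, fell by 1.00 (SE 0.05, adjusted p = 3.4e-05), and PAL1, phenylalanine ammonia-lyase, rose by 1.86 (SE 0.31, adjusted p = 0.00476).

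Chloroplast-encoded transcripts were lower in ros1-4: 28 of 61 tested fell and 0 rose, with a median of -0.73, and without Col-0 replicate 3 the count was 41 of 63 lower. ATCG01110, a plastid NDH subunit, had 17, 23.7 and 21.6 CPM in ros1-4, against 47.4, 45.1 and 36.3 CPM in Col-0. ATCG01130, the long reading frame ycf1, had 380, 569 and 624 CPM in ros1-4, against 1259, 1172 and 801 CPM in Col-0. The groups did not overlap in either gene, and Col-0 replicate 3 was the Col-0 library nearest to ros1-4. How the libraries captured organelle RNA, which mostly lacks long poly(A) tails, is not given in the sources used here. Of 18 mitochondria-encoded genes tested 2 fell (11.1%) and 0 rose, and the share lower over all genes tested was the same, 11.1%. Without Col-0 replicate 3 the count was 4 of 19 lower and 0 higher, against 17.4% lower over all genes.

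**Figure D3:**
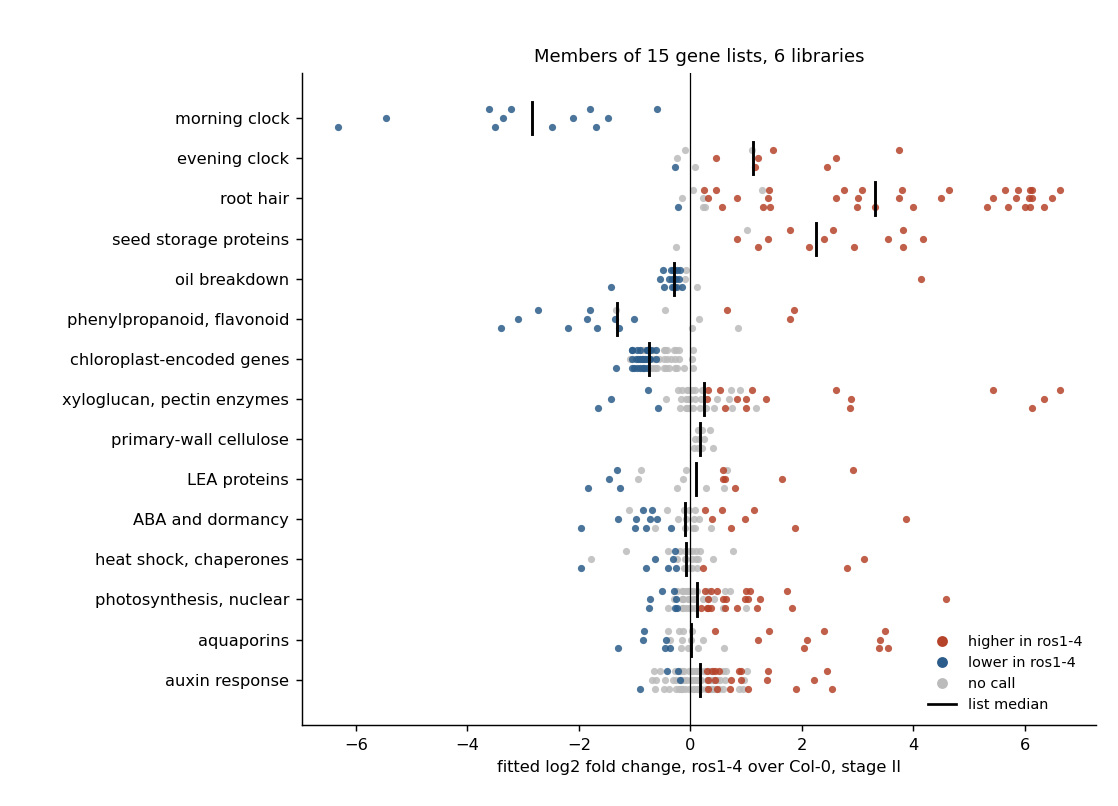
Fitted log2 fold change (x axis, ros1-4 over Col-0) of the tested members of 15 gene lists (y axis); points are genes, coloured by their call with 6 libraries, and black bars are list medians, with genes at or near 0 counts in a group left out as points and set to their bound in the medians. The morning clock lies wholly below 0 (median -2.85), root hair genes lie mostly above it (3.31), and the primary-wall cellulose genes have no call.

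Some lists gained most of their calls once Col-0 replicate 3 was left out. The genes of cellulose synthesis in growing (primary) walls had 0 calls of 10 with 6 libraries and 7 higher of 10 without that library, with medians of 0.18 and 0.26. CESA6, a catalytic subunit, had 208, 218 and 215 CPM in ros1-4, against 162, 163 and 216 CPM in Col-0. COB, a GPI-anchored protein that orients cellulose deposition, had 241, 222 and 234 CPM in ros1-4, against 192, 191 and 220 CPM in Col-0. In CESA6 Col-0 replicate 3 lay within the ros1-4 range and in COB close below it, while the other Col-0 libraries lay below both. The difference in CESA6 was 0.25 (SE 0.11, adjusted p = 0.14) with 6 libraries and 0.40 (SE 0.05, adjusted p = 6.3e-05) without replicate 3. Scaling by library size alone gave 5 higher calls in this list.

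Xyloglucan and pectin enzymes, which remodel the wall matrix, gave 16 higher and 4 lower of 48 tested, and 27 higher and 5 lower of 49 without Col-0 replicate 3. Over all genes tested the share that was higher was 11.4% with that library and 19.6% without it. In proportion, the higher calls of this list thus grew about as much as those of all genes. XTH15, a xyloglucan endotransglucosylase, had 61.6, 64.4 and 64.6 CPM in ros1-4, against 20.3, 27.2 and 69.8 CPM in Col-0. PME2, a pectin methylesterase, had 7.33, 5.42 and 7.78 CPM in ros1-4, against 1.47, 1.70 and 5.83 CPM in Col-0. In both genes Col-0 replicate 3 was at the ros1-4 level, and neither passed with 6 libraries (adjusted p = 0.233 for XTH15 and 0.0983 for PME2). The members that passed in every fit included XTH7, at 2.89 (SE 0.30, adjusted p = 6.4e-04), and, on the lower side, BGAL8, a beta-galactosidase, with 76.4, 74.1 and 73.8 CPM in ros1-4, against 240, 233 and 233 CPM in Col-0. Class III peroxidases found by their gene symbol had 1 of 6 higher, and 4 of 6 when replicate 3 was left out. The larger set annotated as peroxidase superfamily protein gave 13 higher and 1 lower of 33, and 25 and 1 without replicate 3. AT5G64120, a cell wall peroxidase, had 122, 100 and 98.6 CPM in ros1-4, against 29.4, 38.1 and 140 CPM in Col-0, so that replicate 3 was the highest of all 6 libraries. AT1G05250, a peroxidase with root hair expression, was called with every library, with 38.5, 48.5 and 35.5 CPM in ros1-4, against 0.105, 0.274 and 3.34 CPM in Col-0. Casparian strip and suberin genes had 0 calls of 5 and 3 of 6 higher without that library.

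Late embryogenesis abundant (LEA) proteins, protectants of the dry embryo, gave 6 higher and 4 lower of 18 tested with 6 libraries, and 7 and 7 without Col-0 replicate 3. The 4 lower genes were lower without it too, by more, but each lost its call in at least 1 other fit that left out a library, while 5 of the 6 higher calls held in all 6 of those fits. LEA4-5 had 149, 187 and 167 CPM in ros1-4, against 531, 679 and 163 CPM in Col-0. ECP63 had 27.9, 34.5 and 30.4 CPM in ros1-4, against 131, 162 and 36.7 CPM in Col-0. EM1, a marker of the dry seed, had 13, 21.2 and 17.8 CPM in ros1-4, against 38.3, 47.7 and 9.43 CPM in Col-0. In all 3 genes Col-0 replicates 1 and 2 were high and replicate 3 was at or near the ros1-4 level. LEA4-5 changed by -1.45 (SE 0.43, adjusted p = 0.045) with 6 libraries and by -1.85 (SE 0.10, adjusted p = 6.4e-08) without replicate 3. M17, a LEA protein of late maturation, went with the storage genes, with 81.9, 51.3 and 101 CPM in ros1-4, against 8.19, 10.9 and 11.7 CPM in Col-0.

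ABA and dormancy genes gave 8 higher and 10 lower of 32 tested with 6 libraries and 9 higher and 14 lower of 33 without Col-0 replicate 3, while over all genes the share that was lower grew to 17.4% without it, against 11.1% with it. Of the lower calls 3 held in every fit. By library size alone the split turned to 9 higher and 7 lower. AHG1, a seed phosphatase that restrains ABA signalling, had 10, 11.5 and 13 CPM in ros1-4, against 47.0, 69.3 and 17.6 CPM in Col-0. ABI5, the bZIP factor that arrests growth under ABA, had 35.4, 35.2 and 39.0 CPM in ros1-4, against 66.3, 80.9 and 22.6 CPM in Col-0, and passed only without replicate 3 (-1.01, SE 0.08, adjusted p = 2.5e-06). ABF3, a related factor, had 27.1, 27.2 and 26.2 CPM in ros1-4, against 77.0, 78.7 and 43.2 CPM in Col-0, and passed with every library left out in turn. CYP707A2, the hydroxylase that breaks down ABA in imbibed seeds, fell by 0.85 (SE 0.13, adjusted p = 0.00352). ABF1 rose, with 21.2, 17.9 and 17.7 CPM in ros1-4, against 1.26, 1.65 and 0.954 CPM in Col-0 (3.88, SE 0.17, adjusted p = 2.8e-05).

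Heat shock and chaperone genes gave 3 higher and 7 lower of 32 tested, and 3 and 13 of 34 without Col-0 replicate 3. HSFA2, a heat shock factor, had 3.59, 1.93 and 3.63 CPM in ros1-4, against 18.5, 11.6 and 1.48 CPM in Col-0. MBF1C, a coactivator of transcription, had 1.70, 1.79 and 1.75 CPM in ros1-4, against 10, 8.34 and 2.12 CPM in Col-0. In both genes replicate 3 was apart from the other Col-0 libraries. HSFA2 did not pass with 6 libraries (adjusted p = 0.109), and the call of MBF1C (adjusted p = 0.0271) was lost in 5 of 6 fits without a library. Of 25 genes annotated as HSP20-like chaperones 9 were lower and 0 higher, and 11 and 3 without Col-0 replicate 3. Over all genes tested with 6 libraries, 11.1% were lower and 11.4% higher. That annotation does not cover every small heat shock protein, and the next gene lies outside it. HSP17.6A, a small chaperone made in maturing seeds, rose in every fit, with 7.89, 4.10 and 15.1 CPM in ros1-4, against 0.997, 1.04 and 1.06 CPM in Col-0.

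**Figure D4:**
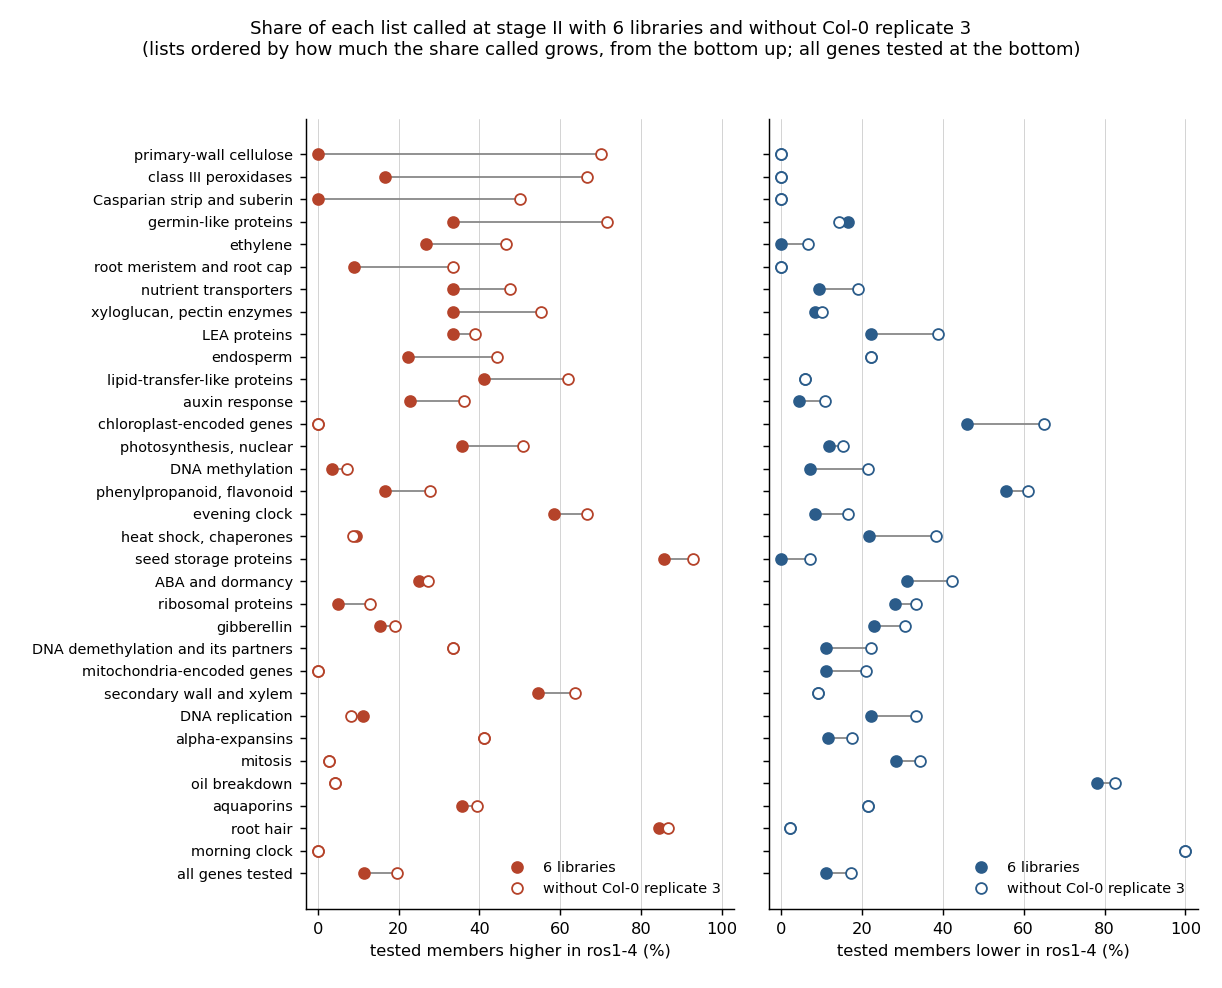
Share of the tested members of each list (y axis) that were higher (left) or lower (right) in ros1-4 (x axis, %), with 6 libraries (filled) and without Col-0 replicate 3 (open). Morning clock, root hair and oil breakdown genes barely move, primary-wall cellulose genes go up to 7 of 10 higher, and over all genes tested the shares are 11.4% and 19.6% higher and 11.1% and 17.4% lower.

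Nuclear photosynthesis genes gave 21 higher and 7 lower of 59 tested, and 30 and 9 without Col-0 replicate 3. CAB1, a light-harvesting protein, had 1295, 1086 and 1127 CPM in ros1-4, against 300, 298 and 398 CPM in Col-0, and its near-identical copies may share its reads. LHCB4.2, a minor antenna protein, went the other way, with 58.5, 49.4 and 50.0 CPM in ros1-4, against 79.1, 85 and 101 CPM in Col-0. RBCS1A, the most abundant small subunit of Rubisco, did not pass (-0.04, SE 0.06, adjusted p = 0.655). RBCS1B had 219, 193 and 221 CPM in ros1-4, against 94.8, 98.4 and 191 CPM in Col-0, and passed only without replicate 3 (1.13, SE 0.07, adjusted p = 1.7e-07).

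Among aquaporins, 10 were higher and 6 lower of 28 tested, and 11 and 6 without Col-0 replicate 3. TIP3;1, the water channel of storage vacuoles in seeds, had 8.56, 10.7 and 16.2 CPM in ros1-4, against 0.472, 1.37 and 1.17 CPM in Col-0. DELTA-TIP, a channel of the large vacuole of growing cells, had 27.4, 27.8 and 26.7 CPM in ros1-4, against 2.99, 2.52 and 9.96 CPM in Col-0. PIP2A, a channel of the plasma membrane, had 158, 154 and 154 CPM in ros1-4, against 352, 364 and 436 CPM in Col-0 (-1.31, SE 0.08, adjusted p = 8.5e-05). Members higher in ros1-4 thus included a dry seed channel and a channel of growing cells, and the groups were apart in all 3.

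Hormone genes were mixed. Auxin response genes gave 20 higher and 4 lower of 88 tested, and 33 and 10 of 91 without Col-0 replicate 3. GH3.3, which joins auxin to amino acids, had 11.9, 8.34 and 8.63 CPM in ros1-4, against 1.57, 1.65 and 2.97 CPM in Col-0, and PIN4, an auxin efflux carrier of the root tip, fell by 0.90 (SE 0.08, adjusted p = 3.5e-04). Ethylene genes gave 4 higher and 0 lower of 15, and 7 and 1 without replicate 3. EFE, an ACC oxidase of the last step of ethylene synthesis, had 9.55, 7.21 and 6.56 CPM in ros1-4, against 1.42, 1.98 and 3.23 CPM in Col-0. Gibberellin genes gave 4 higher and 6 lower of 26, and 5 and 8 without replicate 3. By library size alone they were 6 higher and 4 lower. GASA1, a gibberellin-regulated peptide, had 40.2, 44.7 and 32.8 CPM in ros1-4, against 143, 112 and 125 CPM in Col-0. GASA6, a peptide of the same family linked to embryo axis elongation, had 114, 95.5 and 114 CPM in ros1-4, against 17.5, 19.8 and 40.0 CPM in Col-0. GA3OX2, which makes active gibberellin in germinating seeds, had 152, 153 and 156 CPM in ros1-4, against 188, 199 and 224 CPM in Col-0.

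Secreted proteins of the bifunctional inhibitor and lipid-transfer family gave 14 higher and 2 lower of 34 tested, and 21 and 2 without Col-0 replicate 3. AZI1, a lipid-transfer protein of systemic defence, had 16.5, 25.6 and 13.9 CPM in ros1-4, against 0.157, 0.768 and 1.27 CPM in Col-0. AT4G12520 had 43, 30 and 59 reads in ros1-4, against 0 in each Col-0 library, at least 12.9-fold higher. Germin-like proteins, cupins of the cell wall, gave 2 higher and 1 lower of 6, and 5 and 1 of 7 without replicate 3. GER3 had 124, 88.4 and 102 CPM in ros1-4, against 6.77, 5.21 and 4.87 CPM in Col-0. GLP6 had 0.0473, 0.377 and 0.330 CPM in ros1-4, against 4.67, 6.09 and 12.4 CPM in Col-0. AT5G39110, a further cupin, had no read in ros1-4, against 233, 253 and 469 reads in Col-0, and was at least 120-fold lower. These genes sit in families of near-identical copies, whose reads may be shared.

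Of 9 demethylation genes 3 were higher and 1 lower (3 and 2 without Col-0 replicate 3), with ROS1 among the higher ones. Of 28 methylation genes 1 was higher and 2 were lower (2 and 6 without that library, and 2 and 2 by library size alone). DML2, a relative of ROS1 with the same enzyme activity, had 2.22, 2.12 and 1.89 CPM in ros1-4, against 1.15, 1.1 and 0.901 CPM in Col-0, a rise of 0.98 (SE 0.21, adjusted p = 0.0129) that held in 4 of 6 fits without a library. VIM1, which helps to maintain CG methylation, fell by 0.38 (SE 0.06, adjusted p = 0.00367). In cell division, 4 replication genes were higher and 8 lower of 36, and 1 mitotic gene was higher and 10 lower of 35. Without Col-0 replicate 3 the counts were 3 higher and 12 lower for replication, and 1 higher and 12 lower for mitosis. MCM5, a subunit of the replicative helicase, had 46.9, 49.1 and 46.7 CPM in ros1-4, against 66.8, 58.2 and 60.5 CPM in Col-0. CYCD3;1, a cyclin of entry into the cycle, had 35.6, 38.2 and 39.0 CPM in ros1-4, against 21.6, 19.5 and 22.2 CPM in Col-0. These falls were small, with medians of -0.19 and -0.28, and the mitotic calls kept in all 6 fits without a library numbered 2. Cytosolic ribosomal protein genes gave 2 higher and 11 lower of 39, and 5 and 13 without Col-0 replicate 3. Their median of -0.07 became -0.00 by library size alone, with 4 higher and 4 lower.

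Of the endosperm, EPR1 (AT2G27380), an extensin-like protein of the cells over the radicle, had 3157, 2981 and 3180 CPM in ros1-4, against 1259, 2229 and 1966 CPM in Col-0. MAN7, a mannanase that softens those walls, fell by 0.51 (SE 0.14, adjusted p = 0.0372), a call lost in 5 of 6 fits without a library. EXPA2, an expansin of the endosperm, overlapped between the groups, with 620, 598 and 612 CPM in ros1-4, against 603, 747 and 756 CPM in Col-0.

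At stage IV, the later stage, 708 genes (3.72%) were higher and 856 (4.5%) lower in ros1-4 of 19020 tested, and the lists differed. Of the root hair genes 1 of 48 was higher and of the storage genes 0 of 14, while 8 of 12 morning clock genes were lower and 7 of 12 evening genes were higher and 1 lower, as many as at stage II. The stage IV medians stayed positive, at 0.94 for the root hair genes and 0.41 for the storage genes. Xyloglucan and pectin enzymes had more lower calls at stage IV, 10 of 52, and aquaporins had 8 of 28. A direct test of the difference between the stages over 12 libraries (interaction) called 464 genes (2.4%) as higher and 204 (1.06%) as lower in ros1-4 at stage II relative to stage IV. These included 13 root hair genes and 1 storage gene, all on the higher side, and 6 morning clock genes, all on the lower side. EXPA7 differed by 6.08 at stage II and by 0.64 (adjusted p = 0.316) at stage IV, a difference between stages of 5.46 (adjusted p = 0.0102). CCA1 differed by -5.46 at stage II and by -2.82 (adjusted p = 0.00989) at stage IV, a difference between stages of -2.61 (adjusted p = 0.0364). TT7 differed by -3.10 at stage II and by 0.06 (adjusted p = 0.948) at stage IV. F3H, ACX1, EPF2 and ROS1 differed at both stages in the same direction, and none of these passed the test between stages. Col-0 replicate 3 enters this test as well, and without it 2616 genes were called in place of 668. Leaving out any other stage II library lowered the number to between 109 and 159, and a replicate block gave 289. The counts per list were not computed for those fits.

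**Figure D5:**
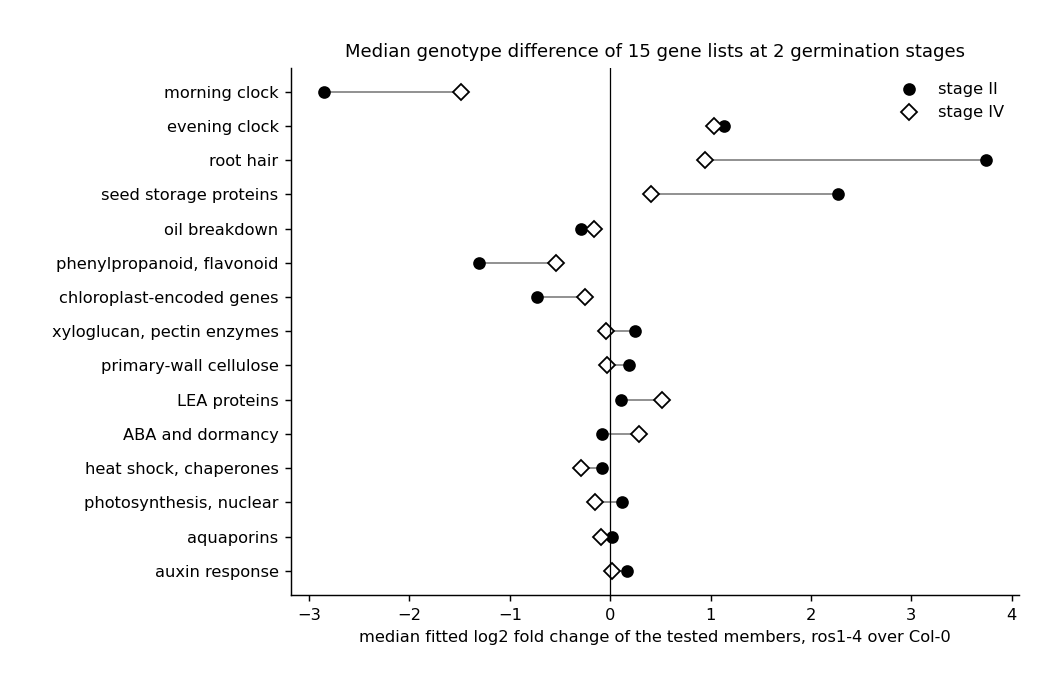
Median fitted log2 fold change (x axis, ros1-4 over Col-0) of the tested members of 15 lists (y axis) at stage II (filled circles) and stage IV (open diamonds). The morning clock is below 0 and the evening clock above it at both stages, while root hair and storage genes are nearer to 0 at stage IV.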

How the data were processed

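The authors mapped single-end RNA-seq reads of 50 bases to Araport11 transcripts with Salmon 1.2 and deposited the estimated counts as 1 table, without normalization or pooling. Estimated counts were summed to 27587 genes, of which 27392 had a row in the RefSeq annotation of TAIR10.1 (used for names, overlaps and the 300 bases before a gene), and rounded to whole numbers. All 18 columns matched a sample label. ros1-4 and Col-0 at stage II were compared with edgeR 4.0.16 (R 4.3.3): filterByExpr, TMM scaling, quasi-likelihood test without a block, Benjamini-Hochberg adjustment over all genes tested. The difference between stages was the interaction term over 12 libraries. DESeq2 1.42.0 was an alternative. The edgeR step was tested on simulated data for this comparison (18521 genes): it recovered 65.7% of genes changed 1.5-fold, 88.1% of those changed 2-fold and 98.5% of those changed 4-fold, with 13 false calls. Only 67, 67 and 66 genes were changed by these folds, and no simulated library stood apart as Col-0 replicate 3 did. These rates therefore do not carry over to the calls in the real data.

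The members and gene lists were chosen with earlier results of these data known. Genes were named by rule: ROS1, the 10 largest rises and falls (also among genes called in all 6 fits that left out a library), the 10 smallest p-values, up to 5 called members per list and direction, defining members of each list, and the 10 genes that set Col-0 replicate 3 apart most in each direction, as well as the 10 called only without it. Not every gene so found is described. ABI5, AT5G64120, BOA, C4H, CESA6, COB, CRU2, GI, ICL, LCL1, LRX2, OLEO1, OLEO2, OLEO3, PCK1, PME2, RBCS1B, SDP1, TOC1 and XTH15 fell outside the rule and were chosen after their values were seen. Alternatives were other scaling, DESeq2, no filter, all 18 libraries, a replicate block, robust estimation, transcripts, a stricter threshold and leaving out each library. Counting intervals cover counting error only, since reads are not independent molecules.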

Additional observations from a re-analysis of the deposited data

Results flagged for a closer look

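For 27 genes named above, the difference between ros1-4 and Col-0 at stage II differed from that at stage IV in the edgeR interaction test (adjusted p of 0.00895 to 0.0467). Only genes that passed are listed, and over all genes 668 of 19296 (3.46%) passed. Genes were named in part for their differences in the same stage II libraries. That choice by itself favours a larger difference at stage II, so the 27 do not show how often such genes differ between stages. Each value is the log2 difference at stage II minus that at stage IV. Among root hair and wall genes it was 4.386 for PRP3, 5.463 for EXPA7, 4.073 for EXT6, 3.308 for LRX1, 2.111 for RSL4, 3.981 for AT1G05250 and 3.103 for XTH7. Among clock genes it was -2.613 for CCA1, -1.654 for PRR9 and -0.605 for ELF3. Transporters and channels gave -3.834 for AMT1;2, 2.478 for AMT1;3, -0.684 for PIP2A and 2.251 for DELTA-TIP. Seed and hormone genes gave 3.619 for M17, -2.803 for AHG1, -1.410 for CYP707A2, -1.189 for GASA1, -0.602 for GA3OX2, -0.978 for MAN7, 1.973 for GH3.3 and 2.190 for EFE. The rest were 2.676 for GER3, 3.188 for AZI1, 1.284 for CAB1, -3.124 for TT7 and -0.492 for C4H.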

How the results depend on the processing

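The 4182 calls at stage II became 1716 when transcripts were tested in place of genes, 1861 at an adjusted p under 0.01, and 2150 to 6934 when 1 library was left out, with Col-0 replicate 3 giving the highest number. The 1116 calls of at least 2-fold became 616 over transcripts. The 668 genes of the test between stages became 1309 in DESeq2's Wald test and 109 to 2616 without 1 library. Of 221 called genes under the naming rule or named in the text, 151 kept call and direction, and none changed sign, under other scaling, DESeq2, no filter, all 18 libraries, the block, robust estimation and each library left out. Transcripts and the stricter threshold were summarised as counts only. Leaving out a ros1-4 library ended 57, 57 or 62 of these calls, and leaving out Col-0 replicate 1, 2 or 3 ended 39, 42 or 2. The median of the DNA methylation list was -0.05 and became 0.01 by library size alone. Libraries with the same replicate number did not deviate together (correlations of -0.055, 0.022 and -0.106), so the numbers were not taken as pairs. With a replicate block the calls were 3082 at stage II and 289 between stages, and the paired axis test gave an exact permutation p of 0.5. The axis difference was 0.007 to 0.042 over its alternatives. With 3 libraries a group, the exact test over samples cannot go below 0.1.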

Other observations

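Other product families were described by the names RefSeq gives them, over families of at least 15 tested genes. Of 33 genes annotated as peroxidase superfamily protein, 13 were higher in ros1-4 and 1 was lower, with a median log2 fold change of 0.87, and without Col-0 replicate 3 the count was 25 higher and 1 lower. Of 18 genes annotated as plant invertase and pectin methylesterase inhibitor superfamily protein, which hold wall enzymes in check, 9 were higher and 0 lower (16 and 0 without that library), and of 16 others that carry the same name without the last word 4 were higher and 1 lower (7 and 1). Of 15 genes of the Pollen Ole e 1 and extensin family, 8 were higher and 0 lower, with a median of 1.04 (10 and 0 without it). RNA helicases of the DEA(D/H)-box family gave 9 higher and 2 lower of 19 (12 and 2 without it). The family with the highest share of lower genes was that of HSP20-like chaperones, with 0 higher and 9 lower of 25 and a median of -0.23 (3 higher and 11 lower without that library). HSP17.6A, a small chaperone that was higher in ros1-4, lies outside that annotation. Over all genes tested the shares were 11.4% higher and 11.1% lower. These families were picked after their values were seen, and no test was made of them.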
